A study of Schizosaccharomyces pombe with 12 samples.

Results

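Of the 4880 *S. pombe* probe sets measured, 39 carried in the array's annotation a gene symbol built from a stem used for ribosome assembly factors (*utp*, *nop*, *noc*, *rrp*, *dbp* and similar stems) and a number. The rule reads the symbol only, but it was set with earlier results of these data known. By the known role of the gene, in most cases taken from its budding yeast counterpart, 15 of the 39 encode factors of the pre-60S particle and 11 factors of the small-subunit processome, also called the 90S pre-ribosome. Another 3 encode subunits or cofactors of the RNA exosome (*rrp46*, *rrp41* and *rrp6*), 1 a protein of small nucleolar ribonucleoproteins (*nop10*) and 1 an enzyme of late 40S maturation (*tsr3*). The symbols of 5 members match by spelling only and belong to genes of another known role. The role of 3 members (*dbp2*, *rrp16* and *rrp12*) was left unassigned.

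A ribosome starts as one long rRNA precursor that RNA polymerase I transcribes in the nucleolus. The small-subunit processome folds and cleaves its first part, pre-60S factors mature the rest, and helicases, GTPases and methyltransferases remodel both particles before they leave the nucleus. The exosome trims the spacers. The genes for these factors are known in yeasts as a group whose transcripts fall together when growth slows or cells are stressed.

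The cells were fission yeast of 2 genotypes, grown in rich YES medium and treated for 3 hours at 30°C with latrunculin A (LatA), a drug that sequesters monomeric actin, or with its solvent DMSO. The wild-type strain was *ura4-D18 leu1-32 ade6-216*, and the *set3Δ* strain carried *set3::KanMX* and the same 3 auxotrophic markers, so all groups shared those markers. Set3p is a subunit of a histone deacetylase complex. The labels state the LatA dose as 0.5 mM and the published methods as 0.5 µM. The 2 strains and 2 treatments made 4 groups, and each had 3 Affymetrix Yeast Genome 2.0 arrays, labelled biological replicates, and the labels do not name separate cultures, so the p-values measure the spread between these arrays. Values are log2 intensities after RMA normalization, expressed for each probe set relative to its own median over the arrays: a value of 1 lies 2-fold above that median. Levels therefore cannot be compared between genes, and a weak probe set cannot be told from a strong one. The *set3* probe set, as a check of the labels, ranged from 1.97 to 2.31 in wild type and from -2.59 to -1.97 in *set3Δ*. The median over all probe sets lay between -0.030 and 0.035 on each array. A list of strains gives the matching wild type as h- and *set3Δ* as h+, without saying which strains were hybridized. Of 9 probe sets listed under M-cell mating genes, 1 passed between the strains with DMSO (*mfm2*, 24.5-fold lower in *set3Δ*). With LatA 3 passed (*mfm2*, *mam1* and *mam2*, all lower). Among all probe sets 0.123% passed with DMSO and 3.16% with LatA. In each treatment 7 of the 9 lay lower in *set3Δ*, and both probe sets of *mfm3* lay higher (0.28 and 0.15 with DMSO). Of 5 probe sets listed under P-cell genes 0 passed with DMSO and 1 with LatA (*map1*, lower in *set3Δ*). The P-cell list holds *mam3*, known as an M-cell gene, which lay higher in *set3Δ* (0.49 with DMSO, 0.24 with LatA). The M-cell list holds *mfr1*, known for a role in meiosis, which lay lower (-0.0047 with DMSO, -0.10 with LatA). These genes do not settle the mating type of the hybridized strains, so mating type and genotype cannot be told apart in the strain comparisons.

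The first question was what LatA did to these transcripts in wild-type cells. Most of them fell. The 15 pre-60S members had a median log2 fold change of -0.81, the 11 processome members of -0.62 and the 3 exosome members of -0.52. The 3 members without an assigned role had a median of -0.77. The 5 members with another role had a median of 0.035, and *tsr3* and *nop10* stood at 0.056 and -0.32. Over all 39 members the median was -0.67, beside -0.034 over all probe sets.

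A gene was counted as changed if it differed by more than 1.5-fold and its p from limma, adjusted by Benjamini and Hochberg's method across the 4880 probe sets, was below 0.05. By this rule 22 of the 39 members changed, and all 22 fell. Among all probe sets, 14.5% changed in either direction and 7.3% fell. Without the limit on the fold, 35 members passed, against 43% of all probe sets. In 35 members the 3 LatA arrays all lay below the 3 DMSO arrays, and among all probe sets this held for 35.3%. Of the members that fell, 12 were pre-60S factors of 15 measured, 6 were processome factors of 11, 1 was an exosome subunit of 3 and 3 were the unassigned members. None of the 5 genes of another role passed. The limit on the fold falls in the middle of the members: *dbp7* passed at 1.52-fold and *mrt4* missed at 1.49-fold. Leaving out the third DMSO array reduced the count to 18, with *dbp7*, *nop16*, *utp13* and *utp23* no longer past the limits, and leaving out the first raised it to 25.

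**Figure D1:**
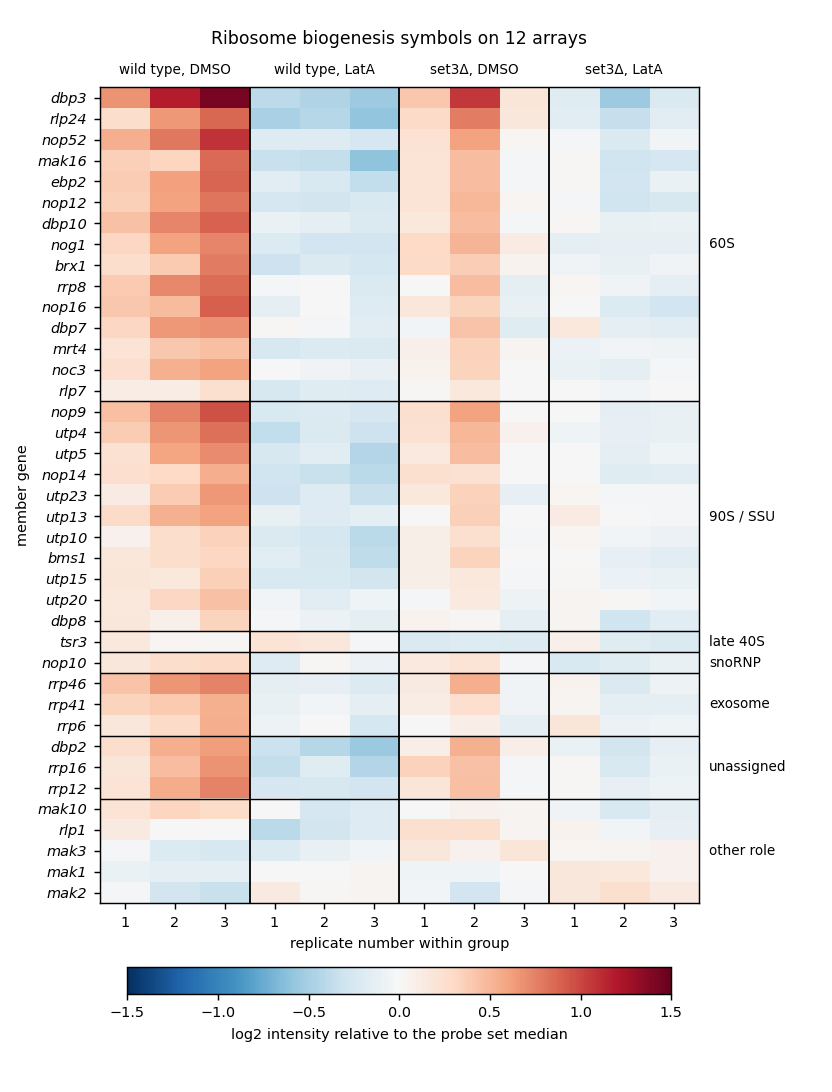
Log2 intensity of the 39 members relative to each probe set's median, one row per member ordered by role, one column per array with the replicate number on the horizontal axis. Red is above and blue below the median. In 35 members the wild-type DMSO values all lie above the wild-type LatA values, and *tsr3*, *mak1*, *mak2* and *mak3* lack this order.

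The pre-60S members held the largest changes. *dbp3* encodes a DEAD-box RNA helicase of large-subunit assembly. Its wild-type arrays lay at 0.67, 1.18 and 1.42 with DMSO and at -0.39, -0.45 and -0.55 with LatA. The *set3Δ* arrays lay at 0.40, 1.06 and 0.19 with DMSO and at -0.19, -0.55 and -0.22 with LatA. In wild type *dbp3* fell by 1.56 on the log2 scale (limma, SE 0.19, adjusted p = 0.00486, 3 arrays per group), a 2.94-fold change. The groups did not overlap in either strain, and the spread between the DMSO arrays, with an SD of 0.38 in wild type and 0.46 in *set3Δ*, was wider than that between the LatA arrays. This was the largest LatA response of the 39 members in both strains.

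*rlp24* encodes a relative of ribosomal protein L24 that holds its place on the pre-60S particle. With DMSO the wild-type arrays were at 0.26, 0.65 and 0.86, and with LatA at -0.49, -0.43 and -0.59. In *set3Δ* the values were 0.29, 0.77 and 0.17 with DMSO and -0.17, -0.35 and -0.17 with LatA. The wild-type change was -1.09 (limma, SE 0.15, adjusted p = 0.00522), or 2.13-fold. Neither strain's groups overlapped, and the third wild-type and the second *set3Δ* DMSO array were the highest of their groups, as for *dbp3*, *nop52*, *mak16*, *ebp2*, *nop12*, *dbp10* and *rrp8*.

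*nop52* encodes the counterpart of budding yeast Rrp1p, a nucleolar pre-60S protein. Wild-type DMSO arrays lay at 0.54, 0.79 and 1.08 and LatA arrays at -0.20, -0.20 and -0.26. In *set3Δ* the DMSO arrays lay at 0.22, 0.60 and 0.028 and the LatA arrays at -0.028, -0.21 and -0.045. The transcript fell 2.03-fold in wild type (log2 -1.02, SE 0.13, adjusted p = 0.00486 from limma). Its LatA arrays in wild type were nearly identical, and in *set3Δ* the lowest DMSO array lay just above the highest LatA array. With *dbp3* and *rlp24*, *nop52* made up the 3 members that changed by more than 2-fold.

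*mak16* encodes another pre-60S factor. Its wild-type values were 0.36, 0.32 and 0.85 with DMSO and -0.33, -0.35 and -0.60 with LatA. The *set3Δ* values were 0.21, 0.46 and -0.014 with DMSO and 0.014, -0.30 and -0.25 with LatA. The wild-type change was -0.94 (limma, SE 0.16, adjusted p = 0.00735). The wild-type groups were well apart, while in *set3Δ* the third DMSO array lay below the first LatA array.

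*ebp2* encodes a nucleolar pre-60S protein. Its wild-type values were 0.39, 0.62 and 0.87 with DMSO against -0.17, -0.23 and -0.37 with LatA, and the change was -0.88 (limma, SE 0.13, adjusted p = 0.00543). In *set3Δ* the DMSO arrays were at 0.21, 0.47 and -0.017 and the LatA arrays at 0.017, -0.29 and -0.10. As for *mak16*, the groups overlapped in *set3Δ* only. *nop12* encodes an RNA-binding protein needed to process the large-subunit rRNA. It lay at 0.36, 0.60 and 0.80 with DMSO and at -0.25, -0.27 and -0.23 with LatA in wild type, a change of -0.84 (limma, SE 0.11, adjusted p = 0.00508). In *set3Δ* it lay at 0.20, 0.49 and 0.025 with DMSO and at -0.025, -0.30 and -0.24 with LatA, so that its groups did not overlap in either strain.

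*dbp10* encodes a DEAD-box helicase of the same pathway. The wild-type arrays were at 0.44, 0.73 and 0.88 with DMSO and at -0.095, -0.13 and -0.22 with LatA, and the transcript fell by 0.83 on the log2 scale (limma, SE 0.12, adjusted p = 0.00522). The *set3Δ* arrays were at 0.16, 0.46 and -0.020 with DMSO and at 0.020, -0.11 and -0.10 with LatA. Only the second *set3Δ* DMSO array came near the wild-type DMSO arrays. *rrp8* encodes a methyltransferase of large-subunit rRNA. With DMSO it lay at 0.39, 0.73 and 0.84 in wild type and with LatA at -0.033, -0.0022 and -0.22, a change of -0.74 (limma, SE 0.13, adjusted p = 0.00796). In *set3Δ* it lay at 0.0022, 0.46 and -0.13 with DMSO and at 0.027, -0.051 and -0.14 with LatA. Of the *set3Δ* arrays only the second with DMSO stood above the rest.

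Among the other 7 pre-60S members, *nog1* (a GTPase), *brx1* (a Brix-domain protein), *nop16* and *dbp7* (a helicase) fell in wild type, by 0.81, 0.74, 0.71 and 0.60 on the log2 scale. *mrt4*, which encodes a relative of the ribosomal stalk protein P0, *noc3*, which encodes a partner of Noc2p, and *rlp7*, which encodes a relative of ribosomal protein L7, had log2 fold changes of -0.58, -0.52 and -0.36. These 3 passed the adjusted p (0.00486, 0.0101 and 0.00642) and not the fold.

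The processome members showed the same direction with smaller changes. *nop9* encodes a PUF-repeat protein that binds the small-subunit rRNA precursor. In wild type it lay at 0.46, 0.75 and 0.96 with DMSO and at -0.23, -0.21 and -0.25 with LatA. In *set3Δ* it lay at 0.24, 0.60 and -0.0059 with DMSO and at 0.0059, -0.15 and -0.12 with LatA. It fell by 0.95 in wild type (limma, SE 0.13, adjusted p = 0.00492), the largest change of the group. The wild-type LatA arrays had an SD of 0.019, against 0.25 with DMSO. In *set3Δ* the groups overlapped, with the third DMSO array just below the first LatA array.

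*utp4* encodes a subunit of UtpA, the subcomplex that first binds the nascent precursor. Its wild-type arrays lay at 0.38, 0.66 and 0.83 with DMSO and at -0.37, -0.21 and -0.31 with LatA. The *set3Δ* arrays lay at 0.23, 0.50 and 0.064 with DMSO and at -0.064, -0.12 and -0.11 with LatA. It fell 1.89-fold in wild type (log2 -0.92, SE 0.12, adjusted p = 0.00486 from limma). The groups were apart in both strains. *utp5*, *utp10* and *utp15* encode further UtpA subunits, and of these *utp5* fell (-0.79) while *utp10* (-0.52) and *utp15* (-0.47) passed the adjusted p only.

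The remaining processome members that fell were *nop14* (-0.71), *utp23*, which encodes a PIN-domain protein (-0.67), and *utp13*, which encodes a subunit of the UtpB subcomplex (-0.62). Those that passed the adjusted p and not the fold were *bms1*, which encodes a GTPase (-0.51), *utp20* (-0.39) and *dbp8*, which encodes a helicase (-0.28, adjusted p = 0.0345). All 11 had their wild-type LatA arrays below every DMSO array.

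The exosome members were *rrp46* and *rrp41*, which encode ring subunits, and *rrp6*, which encodes the nuclear exonuclease. *rrp46* lay at 0.42, 0.66 and 0.74 with DMSO and at -0.15, -0.12 and -0.20 with LatA in wild type, a change of -0.77 (limma, SE 0.091, adjusted p = 0.00485). The *set3Δ* arrays lay at 0.14, 0.54 and -0.047 with DMSO and at 0.047, -0.22 and -0.072 with LatA, with overlap between the groups. *rrp41* had a log2 fold change of -0.52 in wild type and *rrp6* of -0.44, both past the adjusted p and under the fold.

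*dbp2*, whose helicase has roles in both rRNA processing and mRNA metabolism in budding yeast, lay in wild type at 0.26, 0.54 and 0.63 with DMSO and at -0.32, -0.42 and -0.56 with LatA. In *set3Δ* it lay at 0.10, 0.53 and 0.10 with DMSO and at -0.10, -0.27 and -0.12 with LatA. It fell by 0.91 in wild type (limma, SE 0.11, adjusted p = 0.00486). Its groups did not overlap in either strain. *rrp16*, for which RefSeq gives the synonym *nop53*, fell by 0.77. The probe set that the platform table names *rrp12* (SPBC1105.01) fell by 0.76. RefSeq gives no symbol to that locus and the name *rrp12* to another one, so this member is better read by its locus.

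*nop10* encodes a core protein of the box H/ACA particles that guide pseudouridylation. Its wild-type arrays lay at 0.16, 0.26 and 0.29 with DMSO and at -0.19, 0.018 and -0.082 with LatA. The *set3Δ* arrays lay at 0.14, 0.21 and -0.018 with DMSO and at -0.22, -0.18 and -0.12 with LatA. The log2 fold changes were close in the 2 strains, -0.32 in wild type (limma, SE 0.073, adjusted p = 0.0157) and -0.29 in *set3Δ* (SE 0.073, adjusted p = 0.056). Among the 34 members without another known role it had the smallest difference between the responses, 0.036 with an SE of 0.10.

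*tsr3* encodes the transferase that completes a modified base of the small-subunit rRNA late in maturation, and it did not share the negative direction of the other 33 of these members in wild type. It lay at 0.16, 0.025 and 0.015 with DMSO and at 0.21, 0.17 and -0.015 with LatA in wild type. The *set3Δ* arrays were at -0.22, -0.19 and -0.20 with DMSO and at 0.074, -0.18 and -0.21 with LatA. The LatA changes, 0.056 in wild type (limma, SE 0.080, adjusted p = 0.597) and 0.099 in *set3Δ* (SE 0.084, adjusted p = 0.422), were within the spread between arrays. Its DMSO arrays differed between the strains without overlap.

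The 5 genes that match by spelling only differed among themselves. *mak1*, *mak2* and *mak3* encode sensor histidine kinases. *mak1* lay in wild type at -0.095, -0.15 and -0.13 with DMSO and at -0.00087, 0.0096 and 0.038 with LatA, and in *set3Δ* at -0.066, -0.064 and 0.00087 with DMSO and at 0.17, 0.16 and 0.070 with LatA. *mak2* lay in wild type at -0.028, -0.28 and -0.33 with DMSO and at 0.13, 0.022 and 0.041 with LatA, and in *set3Δ* at -0.035, -0.28 and -0.022 with DMSO and at 0.17, 0.24 and 0.14 with LatA. For both the LatA arrays lay above the DMSO arrays in each strain, with log2 fold changes of 0.14 and 0.28 in wild type that missed the adjusted p in limma (0.0558 and 0.0515). *mak3* lay in wild type at -0.026, -0.21 and -0.24 with DMSO and at -0.21, -0.11 and -0.046 with LatA, and in *set3Δ* at 0.17, 0.066 and 0.18 with DMSO and at 0.026, 0.046 and 0.064 with LatA. Its wild-type groups overlapped and its change was 0.035.

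*mak10* encodes a subunit of an N-terminal acetyltransferase (*naa35*). In wild type it lay at 0.20, 0.33 and 0.27 with DMSO and at -0.0027, -0.25 and -0.20 with LatA, and in *set3Δ* at 0.0027, 0.059 and 0.038 with DMSO and at -0.057, -0.23 and -0.14 with LatA. Its wild-type change of -0.42 (limma, SE 0.081, adjusted p = 0.00987) passed the adjusted p and not the fold. The other gene of this set, *rlp1*, lay in wild type at 0.13, 0.0020 and -0.0020 with DMSO and at -0.40, -0.27 and -0.19 with LatA, and in *set3Δ* at 0.24, 0.24 and 0.036 with DMSO and at 0.050, -0.039 and -0.12 with LatA. Its change of -0.33 in wild type likewise missed the fold. Without these 5 genes the median over the remaining 34 members was -0.73 in wild type. A negative log2 fold change was found in 33 of the 34, against 55.1% of all probe sets.

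**Figure D2:**
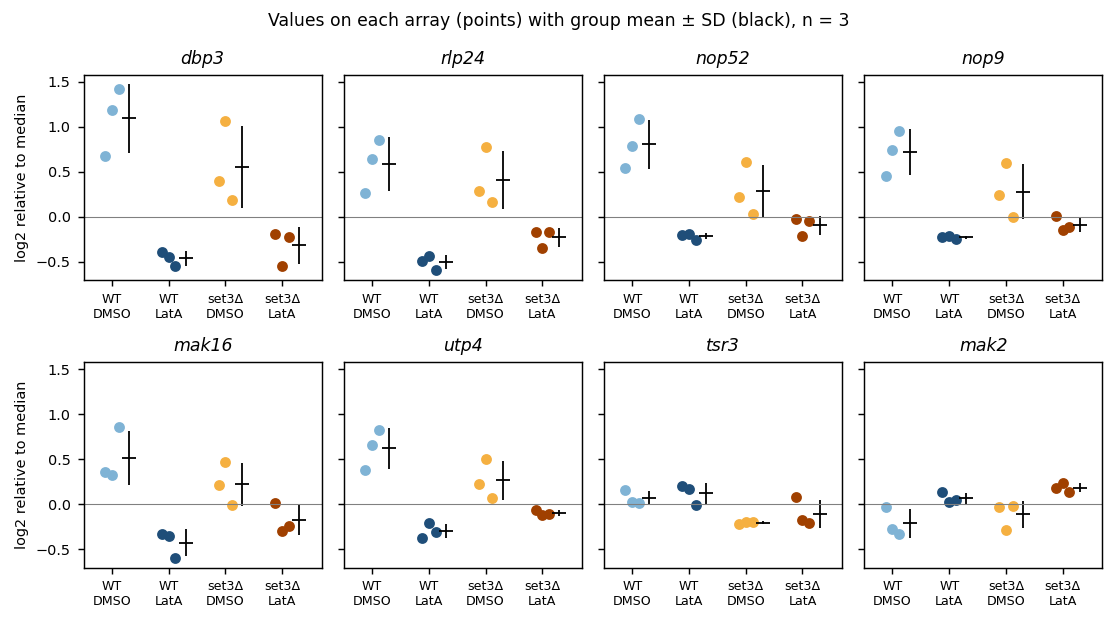
Log2 intensity relative to the probe set's median (vertical axis) on each of the 12 arrays for 8 members, by group, with the group mean ± SD in black (n = 3). In *dbp3*, *rlp24*, *nop52*, *nop9*, *mak16* and *utp4* the wild-type LatA arrays form a low group and the DMSO arrays of both strains are spread. The low group is tight except in *mak16* (SD 0.15), and *tsr3* and *mak2* do not fall with LatA.

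The next question was whether the same transcripts responded in *set3Δ*. Their medians pointed the same way with smaller size: -0.31 for the pre-60S members, -0.14 for the processome members and -0.19 for the exosome members, and -0.23 over all 39, beside -0.020 over all probe sets. The median over the 39 was -0.13 without the second *set3Δ* DMSO array. A negative log2 fold change was found in 35 of 39 members, against 53.7% of all probe sets. Limma called 0 of the 39 in this comparison, against 3.61% of all probe sets. At an adjusted p below 0.05 without the limit on the fold 1 member passed, against 12.4% of all probe sets, and at an unadjusted p below 0.05 16 members passed, or 41%, against 37%. Both shares of members are thus under or near the background. In 15 members the LatA arrays all lay below the DMSO arrays, against 25.2% of all probe sets.

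The member that passed the adjusted p was *nog1*. In *set3Δ* it lay at 0.30, 0.50 and 0.12 with DMSO and at -0.13, -0.12 and -0.12 with LatA, a change of -0.43 (limma, SE 0.10, adjusted p = 0.0454) and 1.35-fold. In wild type it lay at 0.31, 0.60 and 0.73 with DMSO and at -0.20, -0.29 and -0.29 with LatA. Its *set3Δ* LatA arrays differed among themselves by less than those of any other member. *dbp3* and *rlp24* had changes above the fold, -0.87 (SE 0.24) and -0.64 (SE 0.16), and adjusted p of 0.0646 and 0.0565. Both passed when the third *set3Δ* DMSO array was left out. The next largest changes, -0.43 for *nop12*, -0.41 for *dbp2* and -0.40 for *mak16*, were below the fold.

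**Figure D3:**
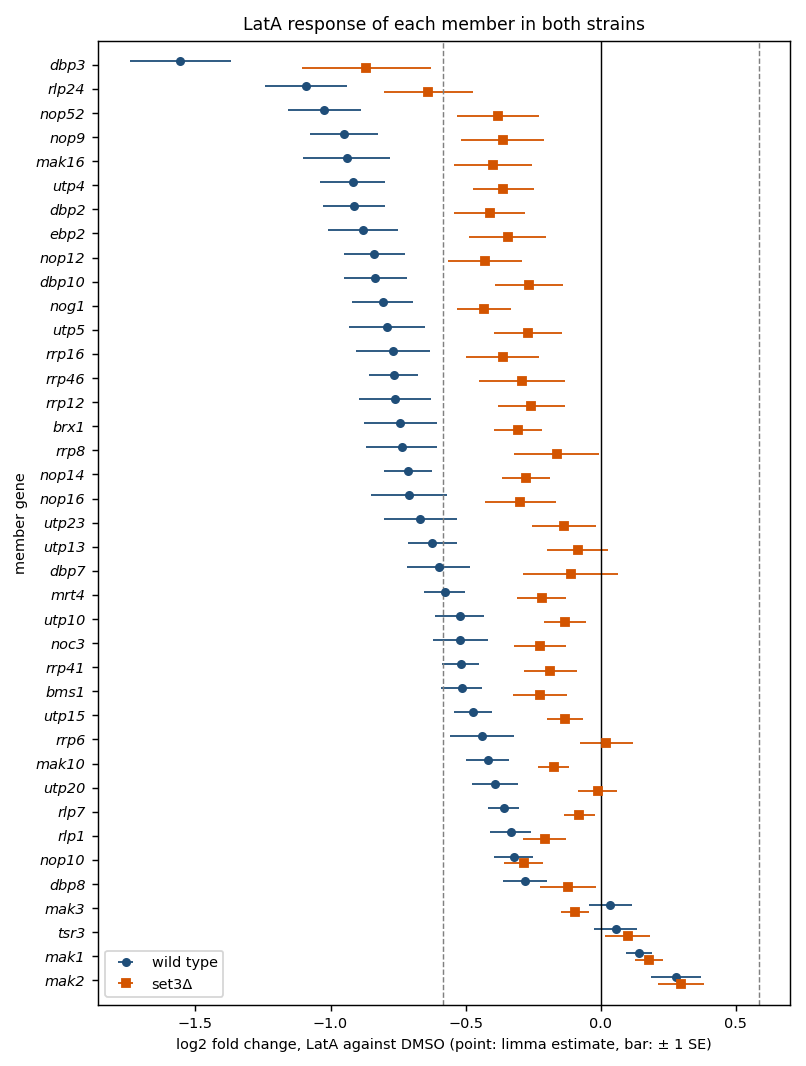
Log2 fold change of LatA against DMSO for each of the 39 members in wild type (circles) and *set3Δ* (squares), as limma estimates with bars of ± 1 SE, on 3 arrays per group. Dashed lines mark a 1.5-fold change. The wild-type points lie left of the *set3Δ* points for all members except *mak3*, and 22 of them lie beyond the left dashed line.

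Whether the responses themselves differed was tested over all 12 arrays as the *set3Δ* response minus the wild-type response. The difference was positive, with the *set3Δ* value above the wild-type value, in 38 of 39 members, against 55.9% of all probe sets. Its median over the 39 was 0.41 beside 0.028 over all probe sets. The median was 0.45 for pre-60S members, 0.44 for processome members, 0.46 for exosome members and 0.037 for the genes of another role. *mak3* was the exception, at -0.13. For single members the difference did not pass: limma called 0 of 39, against 0.0615% of all probe sets, and the lowest adjusted p among members was 0.138. At an unadjusted p below 0.05 there were 25 members, or 64.1%, against 20.2% of all probe sets.

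The largest differences were 0.69 for *dbp3* (SE 0.33, adjusted p = 0.273), 0.64 for *nop52* (SE 0.22, adjusted p = 0.165), 0.59 for *nop9* (SE 0.21, adjusted p = 0.183) and 0.57 for *rrp8* (SE 0.22, adjusted p = 0.190), all from limma. The members with the smallest unadjusted p were *utp15* and *rlp7*, whose differences were smaller, 0.34 (SE 0.093) and 0.28 (SE 0.076). They were singled out after their values were seen. The count of calls turned on the first wild-type DMSO array: without it 7 members passed (*dbp10*, *nop52*, *rrp12*, *utp13*, *utp23*, *utp4* and *utp5*), while all probe sets called rose to 5.33%. With array weights 9 members passed, against 6.64% of all probe sets.

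The arrays of the DMSO groups were where the members varied most. The median of the 39 members was 0.25, 0.40 and 0.63 on the wild-type DMSO arrays and 0.14, 0.35 and -0.0081 on the *set3Δ* DMSO arrays. With LatA it was -0.20, -0.20 and -0.23 in wild type and 0.016, -0.14 and -0.10 in *set3Δ*. The wild-type groups were apart, and in *set3Δ* the third DMSO array lay just below the first LatA array. The median SD of a member between the arrays of a group was 0.191 and 0.193 with DMSO in wild type and *set3Δ*, beside 0.106 and 0.114 over all probe sets. With LatA it was 0.0734 and 0.0826, beside 0.0790 and 0.0708. The members thus scattered more than other probe sets with DMSO and about as much with LatA.

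This scatter was shared. The third wild-type DMSO array was the highest of its group for 33 of the 39 members and the first the lowest for 30. In *set3Δ* with DMSO the second array was the highest for 33 and the third the lowest for 34. Over the 12 arrays the median Pearson correlation between pairs of members was 0.893, and 0.927 among the 34 without another known role, beside 0.0477 for pairs of all probe sets. After the group means were removed, these medians were 0.779, 0.835 and 0.0981. The arrays are the shared points in these correlations, so they describe how the members moved from array to array and carry no test. Members that move together are not independent, so counts of members with the same sign are not counts of independent results. *nop9* followed the median of the other members most closely (r = 0.996 over 12 arrays), then *rrp12* (0.994) and *ebp2* (0.991). *tsr3* did not follow it (-0.069), and *mak1* and *mak2* ran against it (-0.73 and -0.87).

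The strains were then compared within each treatment. These comparisons use the same arrays as the LatA responses and are not independent of them. With DMSO 35 of 39 members lay lower in *set3Δ*, against 52.7% of all probe sets. Among them were all 34 without another known role, and the median was -0.27 over the 39 beside -0.013 over all probe sets. Limma called 0 members, against 0.123% of all probe sets, and the lowest adjusted p was 0.145. At an unadjusted p below 0.05 there were 13 members, against 22.8% of all probe sets. In 9 members the *set3Δ* arrays lay below all wild-type arrays, against 18.3%. The differences of -0.54 for *dbp3* (SE 0.29) and *rrp8* (SE 0.19) and of -0.52 for *nop52* (SE 0.20) were the largest. The lowest adjusted p belonged to *tsr3*, at -0.27 (SE 0.058). The median moved between -0.37 and -0.18 when single arrays were left out.

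With LatA the order was turned, with a median of 0.14 over the 39 beside 0.019 over all probe sets. In *set3Δ* 34 of 39 members lay higher, against 55.3% of all probe sets. The exceptions were *nop16*, *noc3*, *nop10*, *dbp8* and *tsr3*. Limma called 0 members, against 3.16% of all probe sets. Without the limit on the fold 9 members passed, or 23.1%, beside 18.2% of all probe sets, and at an unadjusted p below 0.05 there were 19 beside 35.4%. In 21 members the *set3Δ* LatA arrays lay above all wild-type LatA arrays, against 23.3% of all probe sets. In no member did they all lie below, against 17.6% of all probe sets.

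The 9 members past the adjusted p were all higher in *set3Δ* and none reached 1.5-fold. *utp23* had the lowest adjusted p. With LatA it lay at -0.31, -0.20 and -0.33 in wild type and at 0.029, -0.029 and -0.033 in *set3Δ*, a difference of 0.27 (limma, SE 0.053, adjusted p = 0.0224). *rlp7* lay at -0.24, -0.18 and -0.20 in wild type and at -0.010, -0.038 and -0.0050 in *set3Δ*, a difference of 0.19 (limma, SE 0.041, adjusted p = 0.0280). In both genes the groups were well apart and the arrays of each group close together. The other 7 were *rlp24*, *mrt4* and *brx1* among the pre-60S members, *utp10*, *utp15* and *utp4* among the processome members, and *rrp12*, with differences from 0.16 (*mrt4*) to 0.27 (*rlp24*). *utp10*, *utp15* and *utp4* encode subunits of UtpA. Their differences were 0.26, 0.18 and 0.20, and that of the UtpA member *utp5*, 0.21, had an adjusted p of 0.116.

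**Figure D4:**
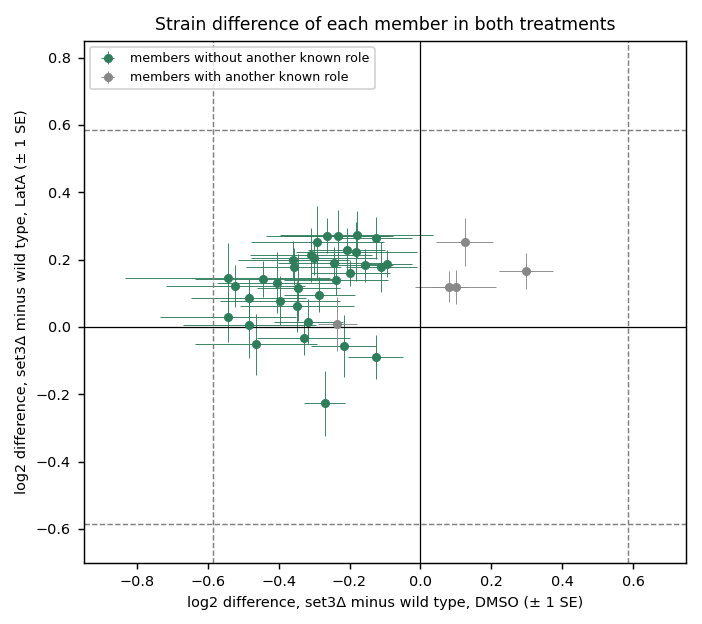
Log2 difference between *set3Δ* and wild type for each member with DMSO (horizontal axis) and with LatA (vertical axis), as limma estimates with bars of ± 1 SE on 3 arrays per group. Dashed lines mark a 1.5-fold difference. The 34 members without another known role (green) all lie left of 0 and mostly above it, inside the dashed lines, while 4 of the 5 members of another role (grey) lie to the right.

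Stress lists overlap with this group of genes. Of the 104 stress-repressed genes of the core environmental stress response (CESR-DN) used in the study, 10 are members: *dbp3*, *rlp24*, *nop52*, *mak16*, *rrp8*, *brx1*, *mrt4*, *nop9*, *utp23* and *dbp2*. No member is in the stress-induced list. In wild type with LatA 9 of the 10 fell, against 7.3% of all probe sets, with a median of -0.93, and *mrt4* missed the fold. The other 29 members had a median of -0.52, and 13 of them fell, so that changes were not confined to the stress list. The 94 CESR-DN genes that are no members had a median of -0.72, with 60 that fell. In *set3Δ* the medians were -0.37, -0.21 and -0.32 for the same 3 sets. There 0 of the 10, 0 of the 29 and 10 of the 94 fell, against 1.64% of all probe sets.

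Other genes of ribosome production were read from lists of known factors. Under RNA polymerase I 15 genes were listed, which include its initiation factors and *reb1*. Of these 9 fell with LatA in wild type, against 7.3% of all probe sets, and the median was -0.69. The largest changes were those of *rpa34* (-1.18), *ker1* (-0.89) and *rpa12* (-0.87), all encoding polymerase subunits, and the initiation factor gene *rrn7* stood at -0.10 (adjusted p = 0.239). Of 25 genes listed as further pre-60S factors 19 fell, and the median was -0.72. They include *drs1* (-0.10), in *S. pombe* the name of an aspartate-tRNA ligase gene. The largest changes were those of *arx1*, which encodes an export factor (-1.10), *rrs1* (-1.09) and *ppp1* (-1.07). Of 21 genes listed as further processome and 40S factors, *sen1* among them, 11 fell, with a median of -0.64. The largest changes were those of the helicase gene *has1* (-1.08), *cms1* (-1.06) and *rbp28* (-0.94). Of 9 genes for snoRNP and other nucleolar proteins 1 fell, *gar1* (-0.67), and the median was -0.30, close to the -0.32 of the member *nop10*. Every gene of these 4 lists had a negative value in this comparison, against 55.1% of all probe sets.

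In *set3Δ* 2 genes of these lists passed, *din1* among the pre-60S factors (-0.61) and *bud22* among the processome factors (-0.61). Among all probe sets 3.61% passed and 1.64% fell, and the share in the lists is near these. The medians in *set3Δ* were -0.27 for RNA polymerase I, -0.31 for both lists of assembly factors and -0.13 for snoRNP and nucleolar proteins. The difference between the responses had medians of 0.46, 0.45, 0.41 and 0.16 for RNA polymerase I, pre-60S factors, processome factors and snoRNP proteins. A further 26 genes carry the same family names but were named only through the study's own gene table (*nop56* is also in the list of snoRNP genes). In wild type 12 of them fell, against 7.3% of all probe sets, and 25 were negative, against 55.1%, with a median of -0.57. In *set3Δ* 0 were called, against 3.61% of all probe sets, and the median was -0.23.

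**Figure D5:**
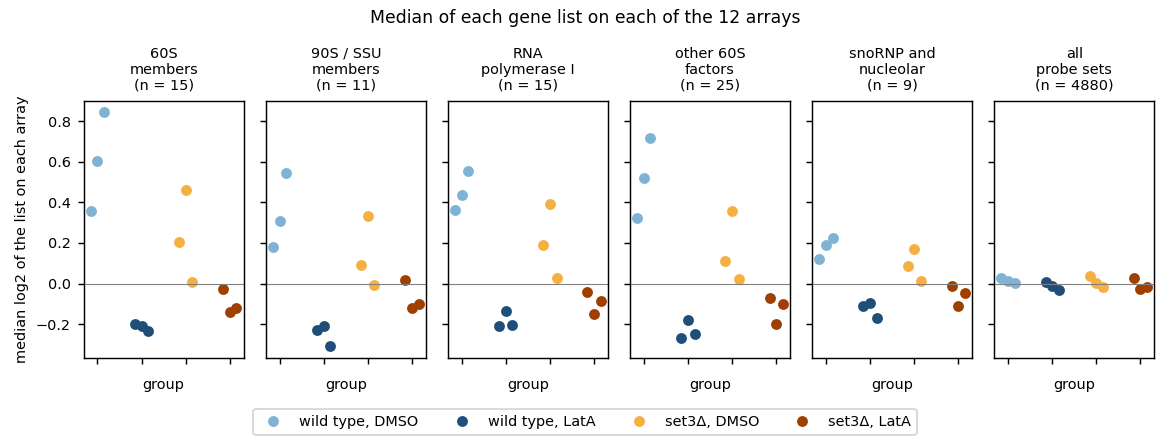
Median log2 intensity of each gene list on each of the 12 arrays (vertical axis), by group, for the pre-60S and processome members, RNA polymerase I genes, further pre-60S factors, snoRNP and nucleolar genes, and all probe sets, with the list size above each panel. In the 5 gene lists the wild-type DMSO arrays lie above the wild-type LatA arrays, and the snoRNP list spans a narrower range than the pre-60S members.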

How the data were processed

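Total RNA was hybridized to 12 arrays. The authors normalized them with RMA in GeneSpring and deposited log2 values, which were found here to be centred on each probe set's median, with no level or signal over background, so no filter on dim probe sets was applied. Precision is limited by the number of arrays. The SE of a member's log2 fold change had a median of 0.113 for the LatA response of wild type and 0.163 for the difference of responses. Probe sets were named from the platform's annotation (2865 with 1 gene, 19 with several, 1996 unnamed), and all 39 members matched RefSeq by gene ID. For the further lists, 855 probe sets were named through File S1, of which 1999 lines were read. 

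Groups were compared with limma 3.58.1 (R 4.3.3, statmod 1.5.0), each pair on 6 arrays and the difference of responses on 12, with the thresholds of the paper. The procedure was tested on simulated data. The members and lists, and the role of each member, were chosen with earlier results of these data known. *rlp1* was given its role, and *rrp12* was left unassigned, after the annotation was read. Values on every array are given, by rule, for the 10 largest wild-type changes, the 4 largest differences of responses, the largest change of each role and the genes of another role. *nog1*, *utp23*, *rlp7* and *utp15* were added after their values were seen. Alternatives were 1 fit of all 12 arrays, a replicate block, each probe set's own variance, array weights, centred arrays, probe sets that can match several genes left out, other thresholds, each array left out and, added after the data were seen, the 5 genes of another role left out. A search for motifs in promoters was not run here. Python 3.11.15 and matplotlib 3.10.9 drew the figures.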

Additional observations from a re-analysis of the deposited data

How the results depend on the processing

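The medians over the members kept their direction under every alternative for which they were computed and moved by less than the spread between arrays. They were not computed with array weights, own variance, 1 fit of all 12 arrays or other thresholds. When single arrays were left out the medians ranged from -0.77 to -0.56 for the LatA response of wild type. For that of *set3Δ* they ranged from -0.30 to -0.13, and for the difference from 0.31 to 0.52. The 22 calls in wild type became 3 with a fold limit of 2 and 35 with none, and from 18 to 25 with single arrays left out. In *set3Δ* the 0 calls became 1 without a fold limit (*nog1*), 1 with arrays centred on their median (*rlp24*), 2 with all 12 arrays in 1 fit and 2 with array weights (*dbp3* and *rlp24* in both), and 0 to 2 with single arrays left out. Between the strains with DMSO, 0 became 2 with array weights (*dbp7* and *rrp8*), and with LatA 0 became 9 without a fold limit. For the difference of responses, 0 became 9 with array weights, and 0 to 7 with single arrays left out. For 3 of the 5 comparisons limma's array weights did not fully converge, and the cause of these changes was not tested. Among members given with every array, 2 turned their sign when 1 array was left out: *mak3* in wild type (from -0.0067 to 0.10) and *rrp8* in *set3Δ* (from -0.28 to 0.011). The other counts of calls and medians stayed within 1.5 times or the spread between arrays.

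Replicate numbers did not pair the arrays: deviations of arrays that share a number correlated between -0.497 and 0.562, over 0.1 in 7 of 18 pairs. Each array was also checked against each other group. In 13 of these 36 checks it correlated best with the array of its own number. With the replicate block 22 members were called in wild type and 0 in each other comparison, with the same medians, -0.67 for wild type, while the calls over all probe sets in *set3Δ* fell from 176 to 0. Centred values leave unknown how many members were near background.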
